A study of Caenorhabditis elegans with 6 samples.

Results

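The fbxa, fbxb and fbxc genes are the numbered F-box subfamilies of Caenorhabditis elegans. The reference annotation names 322 of them, 170 fbxa, 104 fbxb and 48 fbxc, and all 322 are protein-coding and present in the count files. The genes described here were chosen by measured values, 30 or more raw counts summed over the 6 libraries, which left 87, made up of 56 fbxa, 15 fbxb and 16 fbxc genes. Of the other 235, 69 had no count in any library and 166 had 1 to 29 counts. RNA was taken from the distal arms of gonads dissected from young adult worms 12 h after the fourth larval stage, 5 to 7 animals pooled per library. The mutant worms carried sin-3(tm1276), a mutant allele of the gene for SIN-3, a scaffold protein of histone deacetylase complexes, and gave 3 libraries. The other 3 libraries came from wild-type worms. The labels name no transgene or treatment in either genotype, and they give the genotype of the worm as a whole, so an effect in germ cells and one in other cells cannot be told apart. In pooled tissue, a change in the number of cells of a type and a change in RNA per cell cannot be told apart.

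F-box proteins are the substrate receptors of SCF ubiquitin ligases. The F-box binds a Skp1-related adaptor, the adaptor binds a cullin, and another region of the F-box protein binds the protein to be ubiquitinated. C. elegans has a greatly expanded family, many copies lie next to each other on chromosome arms, and most have no described substrate. The fbxa proteins carry an FTH domain, named after FOG-2, an F-box protein that works with GLD-1 to allow sperm to be made in the hermaphrodite gonad. A few fbxa proteins and the adaptor SKR-3 belong to a CUL-6 ligase that is induced in infected or stressed worms.

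Each library held 24491014 to 30634455 counts assigned to genes in sin-3(tm1276) and 24505604 to 25002505 in wild-type. Levels are CPM, gene counts scaled to a library of fixed size, after trimmed-mean (TMM) scaling, at which 3 counts were worth 0.0941 to 0.130 CPM. The targeted gene sin-3 stood at 179, 175 and 184 CPM in sin-3(tm1276) and at 367, 358 and 369 CPM in wild-type. Germline markers summed to 2418 to 2449 CPM in sin-3(tm1276) and 2434 to 2643 CPM in wild-type. Of 7 germline markers tested 3 were lower and 1 higher, or 1 and 3 under scaling by library totals. The list had a median of 198 CPM, and of all genes at 64 CPM or more 51.9% were lower and 22.5% higher. Those with the smallest p, syp-1 and gld-1, stood at -0.40 and -0.26 on the log2 scale. None of 34 sperm genes reached 30 counts. Of 8 somatic gonad markers tested, 6 were higher in sin-3(tm1276) and none lower, beside 31.3% and 30.7% of all genes tested. Without wild-type replicate 3, inx-8 lost its call (edgeR adjusted p of 0.0527) and fln-1 was called lower, which left 5 higher and 1 lower. The whole somatic gonad list, most of it fln-1, summed to 1695 to 1803 CPM in sin-3(tm1276) and 1547 to 1827 CPM in wild-type, and the list other than fln-1 to 141 to 160 CPM and 77.9 to 92.6 CPM. The somatic markers ehn-3 and lag-2 stood at 0 and at no more than 0.385 CPM. Whether more somatic gonad RNA has a part in any F-box difference below was not tested. Intestinal markers summed to 189 to 248 CPM in sin-3(tm1276) and 185 to 489 CPM in wild-type, while the intestinal regulators elt-2 and elt-7 stayed at or below 0.653 CPM in every library. Of 3 neuron markers tested, ida-1 and egl-3 were lower, at -1.72 and -0.87 on the log2 scale, and that list summed to 3.5 to 7.0 CPM in sin-3(tm1276) and 5.5 to 6.7 CPM in wild-type. The parts of these lists in any F-box difference were not tested either.

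More F-box genes were higher than lower in the sin-3 mutant, and the calls were spread unevenly over the 3 subfamilies, a difference that was not tested. Among 76 of the 87 that passed the filter on low counts, 36 were higher in sin-3(tm1276), 16 were lower and 24 were not called by edgeR's quasi-likelihood test with Benjamini-Hochberg adjustment at 0.05 over 9787 genes. That is 47.4% higher and 21.1% lower, where 31.3% of all genes tested were called higher and 30.7% lower. For the 76, the median log2 fold change was 0.55, against 0.028 for all genes tested. Among fbxa genes 23 of 49 rose, 12 fell and the median was 0.53. Among fbxb genes 7 of 11 rose, none fell and the median was 1.16. Among fbxc genes 6 of 16 rose, 4 fell and the median was 0.06. Scaling by library totals moved the median of all genes up by 0.17 on the log2 scale, and the F-box counts then became 43 higher and 9 lower, with fbxa at 25 and 6, fbxb at 10 and 0, and fbxc at 8 and 3. Changes of more than 1 on the log2 scale were called for 22 genes upward and 3 downward, beside 8.44% and 3.22% of all genes tested. All mutant libraries lay above all wild-type libraries for 41 of the 76 and below them for 16, beside 34.8% and 33.0% of all genes tested.

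**Figure D1:**
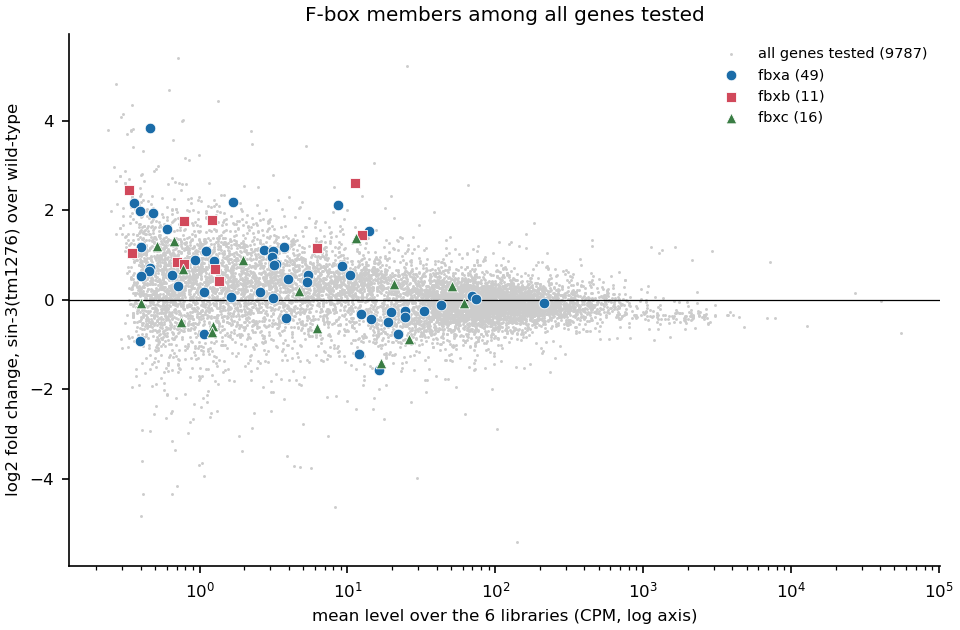
Log2 fold change, sin-3(tm1276) over wild-type, against mean level over the 6 libraries (CPM, log axis) for all 9787 genes tested (grey), with the 49 fbxa (circles), 11 fbxb (squares) and 16 fbxc genes (triangles) tested. All 11 fbxb squares lie above 0, while fbxa and fbxc points lie on both sides.

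The gene set depends on which genotype supplied the counts. Of the 87 genes, 86 had 15 or more counts summed over the 3 sin-3(tm1276) libraries, but 74 had as many over the 3 wild-type libraries, so 13 reached the set mainly through the mutant. The counts above are therefore a description and not support for a rise of the family. When all 87 were fitted, 39 were higher and 17 lower, beside 28.0% and 27.8% of 11114 genes, and the 4 added calls were fbxa-43, fbxb-69 and fbxb-59 higher and fbxb-77 lower. Just inside the limit lay fbxa-51, fbxa-166 and fbxa-59 with 31 counts each and fbxa-74 with 35. Just outside lay fbxa-118, fbxb-72 and fbxc-25 with 28 each and fbxa-19 with 27. Libraries of sin-3(tm1276) had a count for 195 to 203 of the 322 genes and wild-type libraries for 155 to 162, while over all genes they had a count for 15780 to 16122 and 14759 to 14937 genes. In the authors' deposited table, 34 of the 87 were higher and 16 lower at an adjusted p under 0.05, beside 19.2% and 23.8% of the 13368 genes with an adjusted p there.

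The summed level of the fbxb genes was higher in the mutant. The 104 annotated fbxb genes together gave 63.5, 60.7 and 61.0 CPM in the sin-3(tm1276) libraries and 23.6, 19.2 and 20.1 CPM in the wild-type libraries, so that the mutant mean was 2.94 times the wild-type mean. The lowest mutant sum was well above the highest wild-type sum. The genes fbxb-7, fbxb-97 and fbxb-67 supplied 72.3% of the sum, averaged over the libraries. Without them the other 101 genes still summed to 15.6 ± 0.95 CPM in sin-3(tm1276) and 7.32 ± 0.98 CPM in wild-type (SD, n = 3 each). The 89 fbxb genes under 30 counts summed to 5.23 ± 0.61 CPM in sin-3(tm1276) and 2.16 ± 0.42 CPM in wild-type. The sums of the other subfamilies lay near each other in the genotypes, at 692 ± 10.5 and 715 ± 14.4 CPM for fbxa and at 202 ± 4.04 and 210.0 ± 9.92 CPM for fbxc, in sin-3(tm1276) and wild-type (SD, n = 3 each). None of the 11 fbxb genes tested was lower with edgeR at an unadjusted p under 0.05 or with DESeq2.

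The fbxb gene with the largest change among those with a mean of 1 CPM or more was fbxb-97, on chromosome II at 1846977 to 1848161 of WBcel235, minus strand, with 2 exons. It stood at 20.1, 18.7 and 18.9 CPM in sin-3(tm1276) and at 3.40, 2.90 and 3.09 CPM in wild-type. The groups were far apart. Its log2 fold change was 2.61 ± 0.11 (SE), the edgeR adjusted p was 2.00e-10 and the alternatives gave 2.56 to 2.78. The gene fbxb-7, on chromosome V at 17377406 to 17379233, stood at 18.8, 17.8 and 18.2 CPM in sin-3(tm1276) and at 7.44, 5.62 and 6.94 CPM in wild-type. Its groups did not overlap and its log2 fold change was 1.45 ± 0.11 (SE). The gene fbxb-67, near the end of chromosome I, gave 7.99, 8.91 and 9.08 CPM in sin-3(tm1276) and 4.29, 4.02 and 3.30 CPM in wild-type, a log2 fold change of 1.16 ± 0.14 (SE). In wild-type gonads these 3 had the highest fbxb levels per length, at 2.76 ± 0.22, 6.22 ± 0.88 and 3.90 ± 0.52 CPM per kilobase of exon for fbxb-97, fbxb-7 and fbxb-67 (SD, n = 3). In sin-3(tm1276) gonads fbxb-97, at 16.9 ± 0.68 CPM per kilobase, stood beside fbxb-7 at 17.1 ± 0.46, within their spread, whereas the wild-type levels of the pair were apart.

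The less abundant fbxb genes that were called moved the same way, with more counting error. The gene fbxb-45 had 51, 61 and 50 counts in sin-3(tm1276) and 19, 9 and 10 in wild-type, and rose by 1.78 ± 0.29 (SE) on the log2 scale. The gene fbxb-87 had 31, 44 and 30 counts in sin-3(tm1276) and 5, 12 and 8 in wild-type, and rose by 1.75 ± 0.34 (SE). In fbxb-26 there were 49 counts over the mutant libraries and 7 over the wild-type libraries, a ratio of 5.69 with an exact 95% counting interval of 2.56 to 14.9. Such intervals cover counting error only. For fbxb-24 the difference was 0.69 ± 0.27 (SE) with an edgeR adjusted p of 0.0361, and the call was lost without sin-3(tm1276) replicate 1 or 3 or wild-type replicate 2 or 3, where the adjusted p was 0.114, 0.0894, 0.132 and 0.0960. The 4 uncalled genes fbxb-46, fbxb-100, fbxb-15 and fbxb-85 had log2 fold changes of 1.04, 0.84, 0.80 and 0.41, and the highest of them in level, fbxb-85, stood at 1.73, 1.57 and 1.37 CPM in sin-3(tm1276) and 1.15, 0.99 and 1.35 CPM in wild-type. The fbxb-85 groups did not overlap, and the edgeR adjusted p was 0.151.

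**Figure D2:**
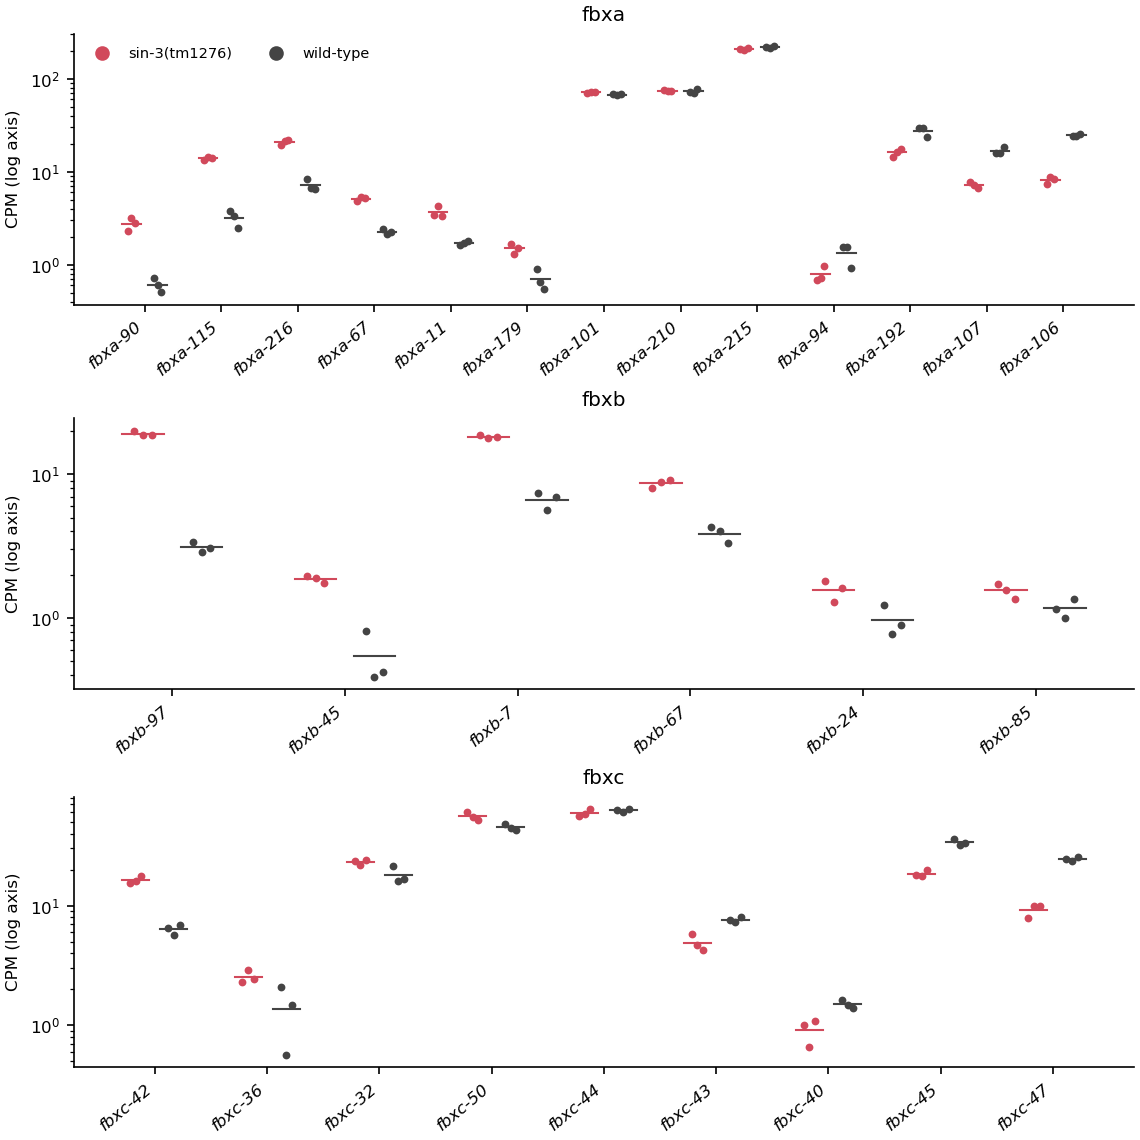
CPM per library (points, log axis) and group mean (lines) for the fbxa, fbxb and fbxc genes named by rule, sin-3(tm1276) left of wild-type, 3 libraries each. For fbxb-97 the mutant points lie at 18.7 to 20.1 CPM and the wild-type points at 2.90 to 3.40 CPM, and for fbxa-106 they lie at 7.41 to 8.88 and 24.1 to 25.3 CPM.

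Among fbxa genes, single members changed in opposite directions. The gene fbxa-115, on chromosome V at 20190535 to 20192152, minus strand, stood at 13.3, 14.2 and 14.2 CPM in sin-3(tm1276) and at 3.82, 3.33 and 2.50 CPM in wild-type. Its log2 fold change was 2.11 ± 0.14 (SE) with an edgeR adjusted p of 1.64e-08, and it lay between 1.95 and 2.28 under the alternatives. The gene fbxa-90 gave 2.30, 3.20 and 2.80 CPM in sin-3(tm1276) and 0.722, 0.605 and 0.508 CPM in wild-type, a log2 fold change of 2.17 ± 0.25 (SE). Both genes had every mutant library above every wild-type library. The gene fbxa-216 on chromosome I gave 19.5, 21.3 and 22.0 CPM in sin-3(tm1276) and 8.33, 6.66 and 6.60 CPM in wild-type, a log2 fold change of 1.54 ± 0.11 (SE). The other called genes named by the rule were fbxa-67, fbxa-11 and the X-linked fbxa-179, at 1.17 ± 0.16, 1.11 ± 0.19 and 1.10 ± 0.27 (SE). Among genes under 1 CPM, fbxa-143 had 17, 30 and 29 counts in sin-3(tm1276) and 2, 1 and 1 in wild-type, a ratio of 15.4 with an exact 95% counting interval of 5.79 to 58.1. The gene fbxa-143 is named outside the rule, since its values were seen first.

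Of the 12 fbxa genes that fell, 11 had a mean level of 8 to 64 CPM. The gene fbxa-106, on chromosome V at 18082402 to 18085200, minus strand, stood at 7.41, 8.88 and 8.45 CPM in sin-3(tm1276) and at 24.1, 24.4 and 25.3 CPM in wild-type. All mutant libraries lay far below all wild-type libraries, and the fitted fold was 0.336. The log2 fold change was -1.57 ± 0.09 (SE), at an edgeR adjusted p of 4.24e-09. The gene fbxa-107 gave 7.79, 7.24 and 6.66 CPM in sin-3(tm1276) and 15.9, 16.0 and 18.4 CPM in wild-type, a log2 fold change of -1.22 ± 0.10 (SE). The gene fbxa-192 gave 14.4, 16.2 and 17.8 CPM in sin-3(tm1276) and 29.6, 29.3 and 23.6 CPM in wild-type, at -0.77 ± 0.10 (SE). For fbxa-94 the difference was -0.76 ± 0.29 (SE) with an adjusted p of 0.0353, which became 0.0987 and 0.104 without sin-3(tm1276) replicate 1 and 2 and 0.101 and 0.121 without wild-type replicate 1 and 2. The other 8 fbxa genes called lower fell by 0.13 to 0.50 on the log2 scale, and the smallest of them, fbxa-206, stood at 0.04 under library totals. The call of fbxa-206 was also lost without sin-3(tm1276) replicate 1 or 2 or wild-type replicate 1 or 2, with an adjusted p of 0.111, 0.0522, 0.115 and 0.0630.

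The most abundant fbxa genes were not called. In wild-type gonads fbxa-215 was the highest at 163 ± 5.03 CPM per kilobase of exon, ahead of fbxa-101 at 59.4 ± 1.04 and fbxa-210 at 55.4 ± 3.11 (SD, n = 3), and the wild-type libraries of the last pair overlapped. The gene fbxa-215 alone made up 30.3% of the fbxa sum and stood at 207, 205 and 212 CPM in sin-3(tm1276) and 222, 211 and 224 CPM in wild-type. Its log2 fold change of -0.08 ± 0.034 (SE) had an edgeR adjusted p of 0.0610, which fell to 0.0338 with DESeq2 and to 0.0487 and 0.0220 without sin-3(tm1276) replicate 3 and wild-type replicate 2. The log2 fold change of fbxa-101 was 0.09 ± 0.040 (SE) and that of fbxa-210 was 0.02 ± 0.045 (SE), neither called, and both were called higher under library totals.

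The fbxc genes split, with members of similar level going opposite ways. The gene fbxc-42, on chromosome II at 991600 to 993179, plus strand, stood at 15.5, 16.1 and 17.6 CPM in sin-3(tm1276) and at 6.54, 5.62 and 6.81 CPM in wild-type, a log2 fold change of 1.37 ± 0.11 (SE). Every mutant library was above 15 CPM and every wild-type library below 7 CPM. In the other direction, fbxc-47 on chromosome IV stood at 7.79, 9.85 and 9.85 CPM in sin-3(tm1276) and at 24.5, 23.4 and 25.4 CPM in wild-type, the log2 fold change being -1.41 ± 0.10 (SE). The gene fbxc-45, also on IV, gave 17.9, 17.6 and 19.8 CPM in sin-3(tm1276) and 36.0, 32.2 and 33.1 CPM in wild-type, at -0.88 ± 0.07 (SE). Smaller rises were found for fbxc-32 and fbxc-50, at 0.36 ± 0.10 and 0.31 ± 0.06 (SE), and a smaller fall for fbxc-43, at -0.64 ± 0.14 (SE). The most abundant fbxc gene in wild-type was fbxc-44 at 63.6 ± 1.44 CPM per kilobase of exon, and it was not called, with a log2 fold change of -0.07 ± 0.052 (SE).

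Among fbxc genes, 2 named calls were lost on leaving out single libraries. For fbxc-36 the log2 fold change was 0.89 ± 0.34 (SE) with an edgeR adjusted p of 0.0424. The call was lost without any of the 3 sin-3(tm1276) libraries, with an adjusted p of 0.0661, 0.127 and 0.0855 for replicates 1, 2 and 3, and without wild-type replicate 2 or 3, with 0.0930 and 0.0912. Its wild-type values were 2.08, 0.562 and 1.48 CPM, so replicate 2 was the low one, and without it the log2 fold change was 0.51. For fbxc-40 it was -0.72 ± 0.26 (SE) with an adjusted p of 0.0291, which rose to 0.137, 0.0658 and 0.0610 without sin-3(tm1276) replicate 2, wild-type replicate 1 and wild-type replicate 2.

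**Figure D3:**
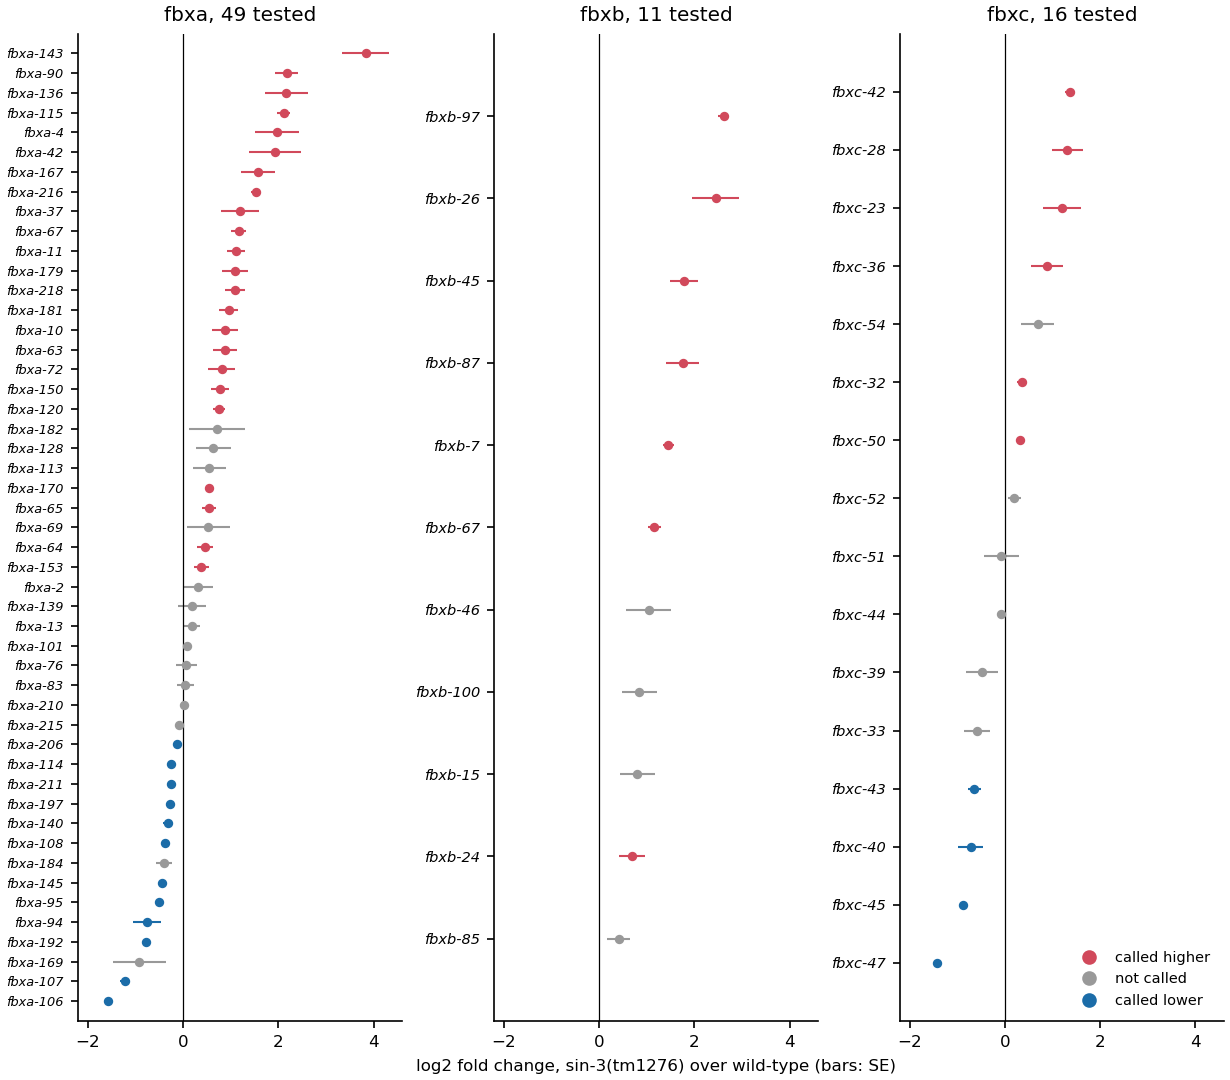
Log2 fold change, sin-3(tm1276) over wild-type, with its SE (bars), for each of the 49 fbxa, 11 fbxb and 16 fbxc genes tested, coloured by whether the gene was called higher, lower or not called. The fbxa changes run from -1.57 to 3.83, the fbxb changes from 0.41 to 2.61 and the fbxc changes from -1.41 to 1.37.

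The direction of change differed with level. Of 23 F-box genes tested with a mean under 1 CPM, 11 were higher and none lower, beside 28.3% and 6.59% of all genes at that level. None of the 23 was lower with edgeR at an unadjusted p under 0.05 or with DESeq2. Of 27 at 1 to 8 CPM, 16 were higher and 3 lower, or 17 and 1 under library totals, which in the TMM fit is 59.3% and 11.1%, beside 40.5% and 11.4% of all genes. Of 23 at 8 to 64 CPM, 9 were higher and 13 lower, which is 39.1% and 56.5%, beside 35.5% and 36.8% of all genes. The 13 became 8 under library totals. None of the 3 at 64 CPM or more was called by edgeR, though 1 was higher and 1 lower at an unadjusted p under 0.05 and DESeq2 called 1 lower, where 22.5% of all genes were higher and 51.9% lower. From low to high level, the median log2 fold changes of the F-box genes were 0.88, 0.54, -0.25 and 0.02, beside 0.39, 0.34, -0.016 and -0.11 for all genes tested. Under 1 CPM the filter itself asks for counts in at least 1 genotype, so genes near 0 in both are missing from these shares. A gene can also pass only through the genotype where it is high. Of the 87 genes, 13 had under 15 counts over the wild-type libraries and 1 over the sin-3(tm1276) libraries. The calls under 1 CPM are therefore a description and not support for a rise.

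Within a level, the calls of the subfamilies were as follows. At 8 to 64 CPM, 11 of 15 fbxa genes fell (6 under library totals) and 4 rose, while both fbxb genes rose, and 2 of 6 fbxc genes fell and 3 rose. At 1 to 8 CPM, 12 of 18 fbxa and 3 of 4 fbxb genes rose, and 1 of 5 fbxc genes rose (2 under library totals). No test compares the subfamilies, since their members were chosen with earlier results known.

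**Figure D4:**
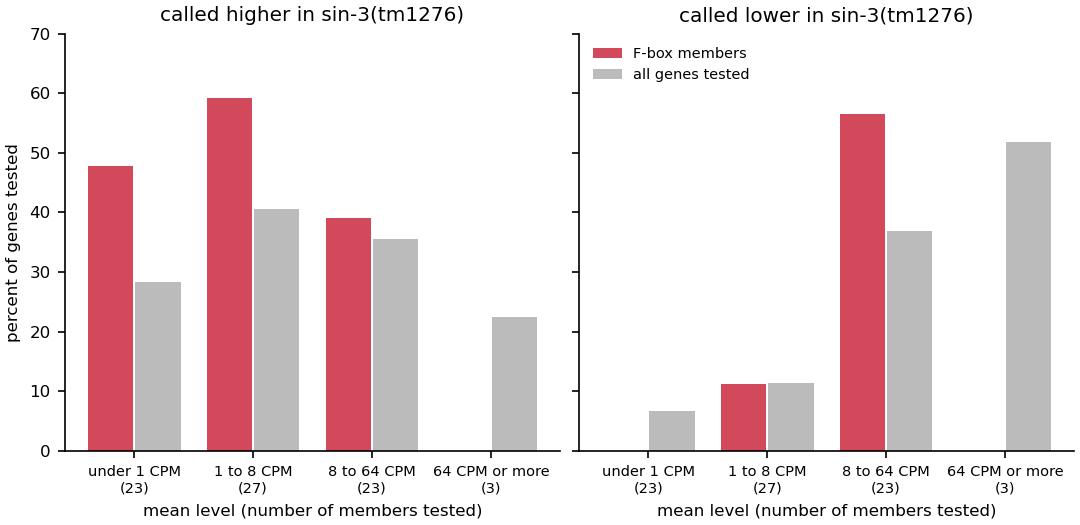
Percent of genes tested that were called higher (left) and lower (right) in sin-3(tm1276) in 4 ranges of mean level, for F-box genes and for all genes tested, with the number of F-box genes under each range. The share of F-box genes called lower was 0 under 1 CPM and 56.5% at 8 to 64 CPM.

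The F-box genes lie unevenly along the genome, and the calls differed between chromosomes. On chromosome III 9 of 13 tested genes were higher and none lower, beside 27.9% and 33.8% of all tested genes there, and on II 11 of 24 were higher and 2 lower, beside 26.6% and 34.9%. On V 11 of 26 were higher and 10 lower, beside 25.0% and 36.0%, and the 10 became 5 under library totals. All 3 X-linked genes tested, fbxa-120, fbxa-170 and fbxa-179, were higher, at 0.76, 0.55 and 1.10 on the log2 scale, as were 61.5% of all X-linked genes tested, while 2.97% of these were lower. Of 4 tested genes on IV, fbxc-45 and fbxc-47 were lower and none higher with edgeR, beside 35.5% and 25.3% of all tested genes there. On I 2 of 6 were higher and 2 lower, or 4 and 1 under library totals, beside 28.7% and 34.0%. No F-box gene on III was lower at an unadjusted p under 0.05 or with DESeq2. The chromosomes also differed in the level of their F-box genes with 30 or more counts. The medians were 0.86 CPM on III and 0.78 CPM on II, against 12.4, 9.98 and 5.33 CPM on I, IV and V. Of all genes tested under 1 CPM, 28.3% were higher and 6.59% lower. The part of level in the differences between chromosomes was not tested.

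Runs of 5 or more annotated F-box genes with gaps of at most 50 kb formed 16 clusters, which held 43 of the 87 genes. Of 35 tested inside clusters 20 were higher and 5 lower, or 23 and 1 under library totals, with a median log2 fold change of 0.88. Of 41 tested outside 16 were higher and 11 lower, or 20 and 8 under library totals, with a median of 0.41. In the TMM fit that is 57.1% higher and 14.3% lower inside, and 39.0% and 26.8% outside. Of all genes tested, 31.3% were higher and 30.7% lower. The shares were 28.3% and 6.59% for all genes under 1 CPM, and 40.5% and 11.4% for all at 1 to 8 CPM. The 43 clustered genes were also lower in level, at a median of 1.08 CPM against 3.24 CPM for the 44 others, and the part of level in the difference was not tested. A cluster of 10 fbxc genes on chromosome IV had no count in any library. Most of these genes share a symbol with another of them, and their exonic lengths are all 1128 or 1413 bases. Reads that align to more than 1 copy are not assigned to a gene, so the lack of counts does not show that the copies were silent.

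Of clusters with more than a single tested copy, only that on III at 933422 to 963833 had every tested copy called the same way. There 10 fbxa genes lay in a row, and the 3 tested, fbxa-67, fbxa-11 and fbxa-10, were all higher. In the fit of genes with 30 or more summed counts, fbxa-51, fbxa-59 and fbxa-60 of that cluster were not called. Of all genes tested on III, 27.9% were higher and 33.8% lower. The genes fbxa-67, fbxa-11 and fbxa-10 lie 199 and 126 bases apart. The ratio of fbxa-67 to fbxa-11 counts was 1.2 to 1.6 in sin-3(tm1276) and 1.2 to 1.5 in wild-type, and that of fbxa-11 to fbxa-10 was 2.97 to 3.21 and 2.24 to 3.31, so the groups overlapped. The call of fbxa-10, at 0.88 ± 0.28 (SE), was lost without sin-3(tm1276) replicate 2 or wild-type replicate 3, with an edgeR adjusted p of 0.0780 and 0.0545. In the largest cluster, 41 genes on II at 1536231 to 1863782, 5 were tested, 2 of them higher, fbxb-97 and fbxb-26. In the cluster of 25 genes on II at 868814 to 1049949, 5 of 9 tested were higher and 1 lower. Of 6 other tested genes in that span 5 were higher, among them alg-2, an Argonaute gene named after its values were seen, at 0.25 ± 0.06 (SE). Most of these 5 other genes were annotated pseudogenes, the lowest at a mean of 0.270 CPM in wild-type. The 5 other genes became 3 with DESeq2 and without sin-3(tm1276) replicate 1 or 2 or wild-type replicate 3, and 2 without wild-type replicate 2. Of all genes tested on II, 26.6% were higher.

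The cluster on V at 20187657 to 20206186 also holds fog-2 and ftr-1, F-box genes close in sequence, whose counts could be split between them. There fbxa-115 rose, as given above, while fog-2 stood at 45.8, 46.0 and 44.4 CPM in sin-3(tm1276) and 59.7, 55.7 and 61.8 CPM in wild-type, a log2 fold change of -0.38 ± 0.05 (SE). The log2 fold change of ftr-1 was -0.51 ± 0.06 (SE) and that of fbxa-114 was -0.25 ± 0.06 (SE), which was -0.09 and not called under library totals. In the same span fbxa-113 was not called, at 0.55 ± 0.35 (SE). So within 18.5 kb fbxa-115 was 4.32-fold higher in sin-3(tm1276) while fog-2, ftr-1 and, by trimmed-mean scaling, fbxa-114 were lower. In the cluster on V at 17492077 to 17585876, the 1 tested F-box gene, fbxa-136, had 51 counts over the mutant libraries and 9 over the wild-type libraries, a ratio of 4.61 with an exact 95% counting interval of 2.25 to 10.6. All 4 other genes tested in that span, C18D4.6, linc-14, C38D9.2 and C38D9.13, were higher as well, with a median log2 fold change of 2.38. Of all genes tested on V 25.0% were higher, and of all tested under 1 CPM 28.3%. In wild-type linc-14 stood at no more than 0.127 CPM and C38D9.13 at no more than 0.0432 CPM. Both passed the filter through the mutant, so the 4 and their median are a description only.

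**Figure D5:**
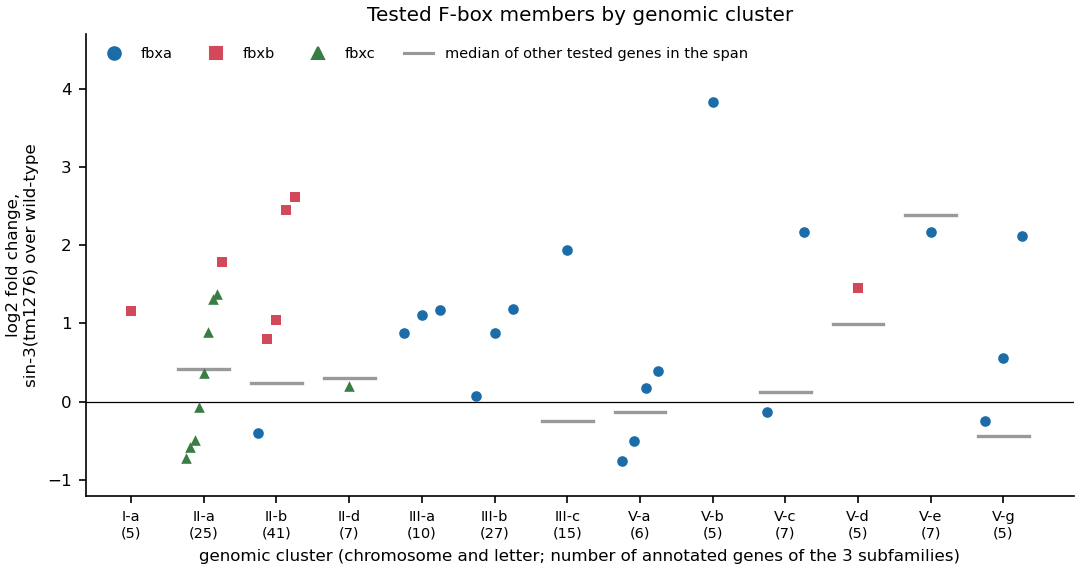
Log2 fold change, sin-3(tm1276) over wild-type, of each F-box gene tested in the 13 clusters that held one, with the number of annotated F-box genes in each cluster below its name and the median of other genes tested in the span (grey line). In the last cluster of V, fbxa-115 at 2.11 lies above fbxa-114 at -0.25 and the other genes' median of -0.44.

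Some close neighbours had different calls. This was so in 10 of 14 pairs of tested F-box genes no more than 5 kb apart, or 71.4%. Of 6889 other pairs of consecutive tested genes within that distance it was so in 54.3%, and the difference was not tested. All 10 set a called gene beside an uncalled one, and none set a gene called higher beside one called lower. Of the 14 pairs, 6 had log2 fold changes of opposite sign. The ratio of fbxa-107 to fbxa-210 counts, genes 140 bases apart on the same strand, was 0.103, 0.0976 and 0.0899 in sin-3(tm1276) and 0.222, 0.228 and 0.236 in wild-type. The ratio of fbxc-39 to fbxc-42 counts, 454 bases apart, was 0.0594, 0.0312 and 0.0259 in sin-3(tm1276) and 0.130, 0.131 and 0.149 in wild-type. In both pairs the groups were apart without overlap, and the exact two-sided permutation p was 0.1, the smallest that 3 against 3 libraries allows, with an adjusted value of 0.2 over the 14 pairs. In all, 7 of the 14 pairs reached that smallest p, among them fbxc-43 with fbxc-44, fbxa-63 with fbxa-76, and fbxa-101 with fbxa-140. How many other neighbouring pairs of genes reach it was not computed. Taken singly, 34.8% of all genes tested had every mutant library above every wild-type library, and 33.0% had every one below.

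Among genes for the partners of F-box proteins in SCF ligases, the main adaptors and the cullin were lower, while the lists around them held calls in both directions. The main adaptor genes skr-1 and skr-2 fell by 0.97 and 0.65 on the log2 scale, and cul-1, the cullin of SCF ligases, stood at 71.6, 73.2 and 75.6 CPM in sin-3(tm1276) and 136, 135 and 135 CPM in wild-type, a log2 fold change of -0.88 ± 0.04 (SE). Of 15 Skp1-related genes tested 7 were higher and 3 lower, the third being skr-17. That is 46.7% and 20.0%, beside 31.3% and 30.7% of all genes tested. The list had a median of 3.06 CPM, and of all genes at 1 to 8 CPM 40.5% were higher and 11.4% lower. Its X-linked genes numbered 3, and the fit without X-linked genes left 12, of which 5 were higher and 3 lower. The 7 became 3 with DESeq2 and without sin-3(tm1276) replicate 2, where skr-7, skr-13, skr-14 and skr-19 lost their calls, and 4 without wild-type replicate 2 or 3. The gene skr-10, named after its values were seen, rose most at 2.61 ± 0.41 (SE). Of 20 cullin, RING and neddylation genes 6 were higher and 11 lower, or 8 and 6 under library totals, with cul-5 at -0.86 ± 0.04 (SE). That is 30.0% higher and 55.0% lower, and the list's median level was 104 CPM, where 22.5% of all genes at 64 CPM or more were higher and 51.9% lower. Of 11 F-box genes outside the numbered subfamilies 8 were lower and 2 higher, or 5 and 3 under library totals. These shares, 72.7% lower and 18.2% higher, came from a list with a median level above 64 CPM. At 64 CPM or more, 51.9% of all genes tested were lower and 22.5% higher, and the difference was not tested. With DESeq2, 8 of the 11 were lower and none higher. The substrate-receptor genes skpt-1 and fbxl-1 fell by 0.50 and 0.83 on the log2 scale. The 2 that rose were fsn-1 and dre-1, at 0.12 and 0.34, and each lost its call without 1 library, fsn-1 without sin-3(tm1276) replicate 2 or wild-type replicate 1 (edgeR adjusted p of 0.0518 and 0.0576) and dre-1 without sin-3(tm1276) replicate 1 or 3 or wild-type replicate 1 or 2 (0.113, 0.100, 0.0732 and 0.0663).

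The genes of the stress- and infection-induced CUL-6 ligase gave low values. The cullin gene cul-6 stood at 1.61, 1.82 and 1.47 CPM in sin-3(tm1276) and 0.595, 0.908 and 0.889 CPM in wild-type, a log2 fold change of 1.03 ± 0.26 (SE), and its adaptor gene skr-3 rose by 0.66 ± 0.19 (SE). The F-box receptors named for that ligase were near or at 0, with no fbxa-75 count in any library and 1 fbxa-158 count in each sin-3(tm1276) library against none in wild-type. Of 8 genes tested of the 45 in the intracellular pathogen response list 5 were higher, the others being pals-22, pals-25 and pals-34 at 0.59, 0.78 and 1.21, and none lower with edgeR at an adjusted or unadjusted p under 0.05 or with DESeq2. That is 62.5% higher, beside 31.3% higher and 30.7% lower of all genes tested. The list's genes with 30 or more counts had a median of 0.60 CPM. Of all genes tested under 1 CPM, 28.3% were higher and 6.59% lower. The call of pals-22 was lost without any 1 of the sin-3(tm1276) libraries (edgeR adjusted p of 0.0632, 0.0621 and 0.0703 without replicates 1, 2 and 3) and without wild-type replicate 2 or 3 (0.147 and 0.111).

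The MATH and BTB genes, another expanded family of ubiquitin ligase receptors, which bind CUL-3, gave calls in both directions. Of 41 tested 5 were higher and 14 lower, or 10 and 11 under library totals, and the median log2 fold change was -0.055. These are 12.2% higher and 34.1% lower, beside 31.3% and 30.7% of all genes tested, and the 5 became 3 with DESeq2 or without sin-3(tm1276) replicate 3. Those with the smallest p were math-33 and bath-41, both lower, at -0.52 ± 0.03 and -0.49 ± 0.04 (SE). Those higher were btb-7, bath-1, bath-21, bath-23 and bath-31, and the last 3 lost their calls without single libraries, bath-21 without sin-3(tm1276) replicate 2 (edgeR adjusted p of 0.0567), bath-23 without sin-3(tm1276) replicate 3 or wild-type replicate 2 (0.0522 and 0.0643) and bath-31 without sin-3(tm1276) replicate 3 or wild-type replicate 2 or 3 (0.0583, 0.0917 and 0.0881). The difference between the families was not tested.

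Overlap with other genes limits a few of the values. Of the 87 genes, 9 share bases with a gene of the opposite strand, such as fbxa-11, fbxa-179, fbxa-94, fbxb-24 and fbxc-47, and 5 share bases with one of the same strand, such as fbxa-67. How the counting treated strand is not given in the sources used here, so counts of these genes may hold reads of their partners. Reads in the line of the count files for alignments that were not unique made up 5.70% ± 0.23 of all tallied reads in sin-3(tm1276) and 7.39% ± 0.62 in wild-type (SD, n = 3 each), so levels of near-identical copies are uncertain.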

How the data were processed

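Distal gonad RNA of 3 sin-3(tm1276) and 3 wild-type libraries was depleted of ribosomal RNA, made into stranded libraries and sequenced as single reads of 50 bases, per the labels' protocols. The submitters' processing notes list HTSeq 0.7.2, DESeq2 1.36.0, STAR 2.7.3a and fastp 0.20.1, without saying what each did. Which build, annotation and strand option they used is not given in the sources used here. The authors deposited raw read counts per gene and library, and a comparison table with a mean normalized count (treated here as a signal), log2 fold changes with their errors, and p-values. That table was used only to count the authors' own calls.

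Gene symbols, coordinates and lengths came from Ensembl release 115 (WBcel235), which matched 46923 of 46934 gene identifiers. F-box genes were all symbols of the fbxa, fbxb and fbxc series with 30 or more summed counts. The members and the other gene lists were chosen with earlier results of these data known. Lines of the count files that name no gene held 8.98% ± 0.24 of tallied reads in sin-3(tm1276) and 10.4% ± 0.84 in wild-type (SD, n = 3 each) and were left out. All genes were fitted together with edgeR 4.0.16 in R 4.3.3 (filterByExpr with a minimum count of 10, trimmed-mean scaling, robust quasi-likelihood F test, Benjamini-Hochberg adjustment over 9787 genes, threshold 0.05). SEs are the log2 fold change divided by the root of F. Alternatives were DESeq2 1.42.0, other scalings and filters, a length offset, leaving out each library, a replicate block, and other cluster gaps. Ratios of neighbouring genes used a pseudocount of 0.5 counts and an exact permutation test.

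Genes named were, per subfamily, the 6 called higher and 4 called lower with the largest change at a mean of 1 CPM or more, the 3 highest per kilobase in wild-type, the most abundant uncalled gene, fbxa-75 and fbxa-158, and from each list the 2 genes with the smallest p. On simulated counts over 9755 genes, the edgeR test recovered 96.9% of genes given a log2 rise of 1 and 55.2% of genes given a rise of 0.5, and 96.0% and 39.4% of genes given falls of the same sizes. The simulation gave every gene the same spread beyond counting noise, drew changed genes over all levels and left 9574 genes unchanged. In the data 31.3% of genes were higher and 30.7% lower, and the F-box genes had a median of 1.63 CPM. The rates are therefore not those for the F-box genes. The labels do not say that libraries of a genotype were grown apart, and the p-values reflect only the spread among these libraries, possibly a technical one. Libraries of 1 genotype differed by more than sampling noise, with chi-square per degree of freedom of 12.5 to 18.8.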

Additional observations from a re-analysis of the deposited data

How the results depend on the processing

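No call of an F-box gene turned to the other direction under any alternative run. Replicate numbers did not pair the libraries (correlations of same-numbered deviations of -0.24, -0.065 and -0.095), and the fit with a replicate block gave 33 F-box genes higher and 14 lower, keeping 47 of 52 calls and adding none. Under library totals, 9 F-box genes and 6 fbxa genes were lower, fbxa-206 changed sign to 0.040 without a call, and the medians were 0.71 for F-box, 0.69 for fbxa, 1.33 for fbxb and 0.23 for fbxc genes, where all genes shifted by 0.17. With genes of 1 CPM or more only, the medians were 0.22 for F-box, 0.16 for fbxa, 1.33 for fbxb and -0.050 for fbxc genes, as fewer low genes entered. The fbxa median was 0.47 with DESeq2 over all 56 fbxa genes, or 0.51 over the 49 tested, and 0.47 over the 46 that are left without X-linked genes. Fitting genes with 30 summed counts gave 1 fbxb gene lower. Beyond 1 on the log2 scale, 22 F-box genes were higher and 3 lower, with fbxa at 13 and 2 and fbxc at 3 and 1. Leaving out 1 library gave 32 to 38 F-box genes higher and 13 to 19 lower, with medians of 0.47 to 0.55 for F-box, 0.43 to 0.51 for fbxa and 1.21 to 1.48 for fbxb genes. The causes of these moves were not tested, other than the fewer genes fitted. DESeq2 lost 10 of the 52 calls and added 1. With gaps of 20 and 100 kb, clusters held 19 and 27 called genes, against 25. Genes with under 15 counts per genotype limit what this depth can show, as their counting intervals are wide.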
